A study of Canis lupus familiaris with 11 samples.

Results

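The interferon-stimulated effector genes are 39 genes whose RNA is known to rise when a cell answers an interferon. They were chosen by name, as the rows of the deposited count table whose gene name is on a list of 39 symbols. Where the name was a placeholder, the protein match was used. The rule holds no measured value, but the list was drawn up with earlier results of these data known. Counts and medians over it are therefore descriptions and not an independent test. All 39 were found among the 26178 rows of the table, 7 of them through the protein match (EIF2AK2, MX1, MX2, OASL, PARP14, STAT2 and USP18). Of these, 34 held enough counts to be tested.

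The libraries came from MDCKII, an epithelial line from dog kidney that grows as a polarised sheet. The series asks what compressing such a sheet sideways does to it, and what part lamin A plays. The groups were LMNA KO cells compressed laterally and left to recover for 2 h (3 libraries), LMNA KO cells without compression (2 libraries), WT cells compressed and recovered in the same way (3 libraries) and WT cells without compression (3 libraries). All cells were grown for 3 to 4 d to confluence in MEM with fetal bovine serum and antibiotics. The growth and recovery times are those of the sample titles. The series design text names other time points, and the titles were followed here. LMNA encodes lamin A and lamin C, filament proteins under the inner nuclear membrane. The labels do not say how the KO line was made, how many clones it holds, whether the replicates came from separate cultures, or whether uncompressed sheets were handled and rested like compressed ones. Compression can therefore not be told apart from handling and recovery time, and p-values measure only the spread between these libraries, which may be technical.

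Type I and type III interferons are secreted when a cell senses foreign or misplaced nucleic acid. They bind receptors whose kinases activate STAT2, which joins IRF9 in a complex called ISGF3 that switches on effector genes. The effectors cut or trap viral RNA, deplete nucleotides, block viral entry and budding, or tag proteins with the ubiquitin-like ISG15. Epithelial cells also keep a low standing level of many of them without infection. The roles given below are those known from human and mouse cells.

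Library totals lay between 10420214 and 17999623 counts. LMNA counts were 291 to 954 in the KO libraries and 7439 to 18014 in the WT libraries, with a log2 fold change between KO and WT of -4.53 ± 0.25 in compressed cells and -4.38 ± 0.30 in control cells (SE; adjusted p = 1.19e-06 and 1.57e-05 by edgeR). All 9 kidney epithelium markers listed were tested. KRT8, KRT18, CDH1 and EPCAM were abundant, while the kidney cadherin CDH16 averaged 3.51 CPM in KO compressed, 2.24 in KO control, 0.357 in WT compressed and 1.19 in WT control cells (CPM are counts scaled to the library total with TMM factors). In WT compression EPCAM was called higher (0.60 ± 0.15) and PAX8 lower (-1.11 ± 0.24), and GGT1 was called higher in KO than in WT cells under both conditions; the part of these shifts in the results below was not tested. The summed level of 11 immune cell markers was 4.12 to 10.3 CPM in KO compressed, 8.04 to 9.53 CPM in KO control, 2.12 to 6.94 CPM in WT compressed and 6.78 to 11.03 CPM in WT control libraries, with PTPRC and CD3E at 0 in all of them. On the first principal component over all genes tested, KO compressed 2 stood at 74.0 and WT compressed 3 at 63.7, against -52.3 to 20.6 for the other libraries. In bulk RNA, a change in the number of cells that hold a transcript and a change in the amount per cell cannot be told apart.

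Compared per length, in FPKM (fragments scaled by gene length and by library total) as the authors deposited them, LGALS3BP was the most abundant of the 39 genes in all 4 groups. It encodes a secreted glycoprotein that binds galectins, and its level was 105 ± 25.6 FPKM in KO compressed, 122 ± 7.05 in KO control, 93.6 ± 23.4 in WT compressed and 141 ± 39.6 in WT control cells (SD). SAMD9L, an antiviral protein that restrains translation, came next in each group, with 84.5 ± 31.4 FPKM in KO compressed, 60.8 ± 8.15 in KO control, 87.4 ± 7.67 in WT compressed and 41.0 ± 1.71 in WT control cells. The levels of this pair lay within their spread in compressed cells and apart in control cells. At the low end, MX2, a GTPase of the nuclear pore that blocks some viruses, averaged 0.191 ± 0.0936 FPKM in KO compressed, 0.0876 ± 0.0628 in KO control, 0.439 ± 0.244 in WT compressed and 0.0963 ± 0.153 in WT control cells. RSAD2, which encodes the radical enzyme viperin, ranked 10 among the 39 genes in WT compressed cells at 31.9 ± 14.9 FPKM and 23 in WT control cells at 3.63 ± 3.96 FPKM.

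The 5 untested members were at or close to 0. IRF7, the factor that amplifies interferon genes, IFI6, a membrane protein that limits cell death, and XAF1, a partner of apoptosis inhibitors, had 0 counts in every library, which allows levels of up to 0.167 to 0.288 CPM (3 counts of a library's total, counting error only). The IRF7 row is 519 bases long and lies wholly within the rows of RASSF7 and PHRF1, and the EPSTI1 row lies within FANCI, so these rows may not measure the named genes. EPSTI1 had 3 counts in all. IFIT1, which traps viral RNA by its end structure, had 4, 2 and 2 counts in WT compressed libraries 1, 2 and 3 and 0 in every other library. With the WT control group set at a floor of 3 counts, its level in WT compressed cells was 3.27-fold that of WT control cells. This takes the 8 counts of the compressed group as exact, so it is no firm lower limit, and the difference was not tested.

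**Figure D1:**
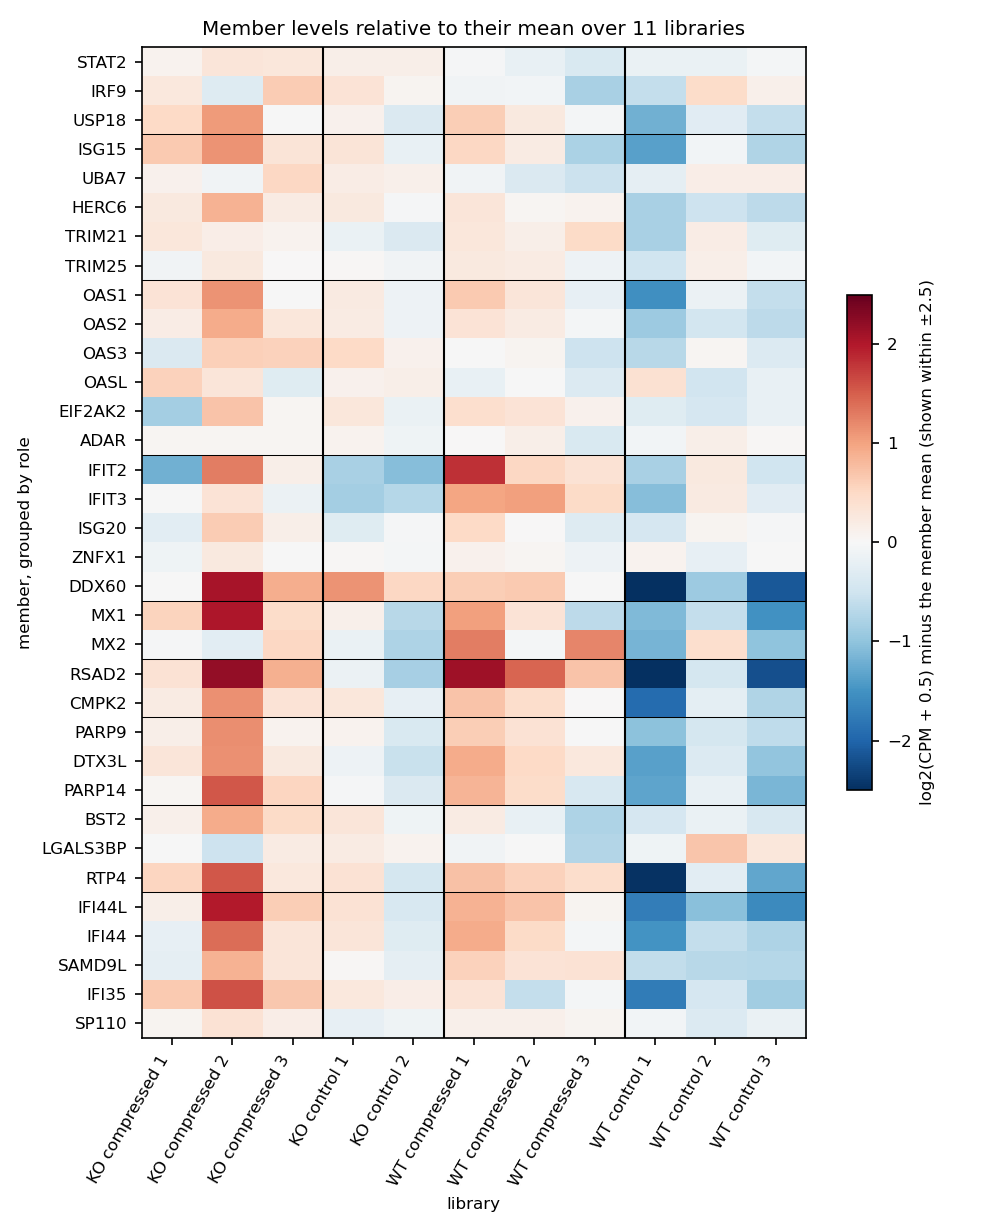
Level of the 34 tested interferon-stimulated genes (rows, grouped by role) in each of the 11 libraries (columns), as log2(CPM + 0.5) minus the gene's mean over all libraries; red is above and blue below that mean. WT control 1 is the lowest library in 21 of the 34 genes and KO compressed 2 the highest in 25.

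The genes varied largely by library. The median deviation of the 34 genes from their own means, on the log2(CPM + 0.5) scale, was 0.12, 0.90 and 0.28 in KO compressed libraries 1 to 3, 0.13 and -0.15 in the KO controls, 0.50, 0.21 and -0.05 in the WT compressed libraries and -0.86, -0.23 and -0.60 in the WT controls. By this median the 3 WT controls were the lowest libraries, and KO compressed 2 was the highest. By the mean deviation, KO control 2 (-0.22) lay below WT control 2 (-0.20). By share of the library's counts, WT compressed 3 (0.195%) and KO control 2 (0.200%) lay below WT control 2 (0.202%). All 39 genes together took 0.355% of the counts of KO compressed 2 and 0.140% of the counts of WT control 1, the extremes of the 11 libraries. Both of these libraries also had the largest mean chi-square against their group over all genes (59.5 and 58.6 per gene), and the part of this in the results below was not tested beyond leaving each library out.

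After compression of WT cells, 9 of the 34 genes were higher than in WT control cells and none was lower at an adjusted p under 0.05. The quasi-likelihood test of edgeR, adjusted by Benjamini-Hochberg over all 13560 genes tested, called RSAD2, DDX60, IFI44L, RTP4, DTX3L, IFI44, SAMD9L, OAS2 and HERC6 higher, where 3.85% of all genes were called higher and 2.40% lower. The median log2 fold change was 0.89 over the 34 genes and -0.02 over all genes tested, and 28 of the 34 had a positive value, against 48.5% of all genes. In 16 genes every compressed library was above every control library, against 21.2% of all genes, and in none was every compressed library below (20.8% of all genes).

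RSAD2 makes an antiviral nucleotide that stops RNA synthesis; its row spans 4488288 to 4508752 of chromosome 17 in build CanFam3.1, which all positions here refer to. It stood at 203, 128 and 76.4 CPM in WT compressed libraries 1, 2 and 3, against 2.21, 33.8 and 9.65 CPM in the WT controls. The lowest compressed library was above the highest control library, and the controls lay far apart. The log2 fold change was 3.15 ± 0.72 (SE; adjusted p = 0.0414, edgeR). With 1 library left out it ran from 2.65 without WT control 1 to 4.48 without WT control 2, and it was called in 4 of the 11 such fits, among them the first of these but not the other. CMPK2, a mitochondrial nucleotide kinase, lies next to RSAD2 on the opposite strand with a gap of 11404 bases. Its value was 1.26 ± 0.37 (adjusted p = 0.0559, edgeR), which did not pass.

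DDX60, a helicase that aids RNA sensing (chromosome 15, 63649232 to 63741300), had 10.1, 10.5 and 6.46 CPM in WT compressed libraries against 0.473, 3.22 and 1.10 CPM in WT controls. Its groups did not overlap, and its log2 fold change was 2.48 ± 0.60 (adjusted p = 0.0428, edgeR). Without WT control 1 the value was 2.08 (adjusted p = 0.0505) and without WT control 2 it was 3.47, and the call was lost in both. Of the IFIT genes, which bind viral RNA, IFIT2 had 1.60 ± 0.68 and IFIT3 1.34 ± 0.44, and neither passed. ISG20, an RNA exonuclease, and ZNFX1, a helicase on mitochondria, had 0.32 ± 0.56 and 0.05 ± 0.15.

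IFI44L, a protein known to dampen the interferon answer (chromosome 6, 68379297 to 68400785), stood at 25.4, 22.7 and 14.2 CPM in WT compressed libraries and at 3.78, 6.37 and 4.15 CPM in WT controls. All compressed libraries lay above all controls. Its log2 fold change was 2.12 ± 0.45 (adjusted p = 0.041, edgeR). IFI44, its paralog (chromosome 6, 68364494 to 68390586), had 134, 98.4 and 67.5 CPM in WT compressed libraries against 24.6, 46.4 and 40.9 CPM in WT controls, a log2 fold change of 1.42 ± 0.38 (adjusted p = 0.0471), and the call was lost without WT control 1 (adjusted p = 0.0708). The rows of this pair overlap by 11290 bases on the same strand, so their reads may be shared.

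SAMD9L (chromosome 14, 18643998 to 18648755) had 458, 392 and 399 CPM in WT compressed libraries and 202, 191 and 187 CPM in WT controls. It had the smallest p of the 34 genes, its replicates lay close together, and its log2 fold change was 1.11 ± 0.22 (adjusted p = 0.041, edgeR). IFI35, which moderates RNA sensing, had a value of 1.01 ± 0.45 and SP110, a nuclear body protein, 0.31 ± 0.18, and neither passed. 

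Of the ADP-ribosylation genes, DTX3L was called. It encodes a ubiquitin ligase that works in a complex with PARP9 (chromosome 33, 25677076 to 25687590) and had 98.3, 72.8 and 61.5 CPM in WT compressed libraries against 19.5, 40.1 and 25.7 CPM in WT controls. The groups did not overlap, and the log2 fold change was 1.45 ± 0.30 (adjusted p = 0.041, edgeR). PARP9 starts 300 bases away on the other strand and had a log2 fold change of 1.03 ± 0.29, just outside the threshold (adjusted p = 0.0506). PARP14, an ADP-ribosyltransferase on the same chromosome, had 1.21 ± 0.42 (adjusted p = 0.0788). 

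Among the double-stranded RNA enzymes, OAS2 was called. The OAS enzymes make the 2-5A signal that activates an RNA-cutting enzyme, and OAS2 (chromosome 26, 10431723 to 10451332) had 279, 253 and 213 CPM in WT compressed libraries against 117, 161 and 140 CPM in WT controls. Every compressed library was above every control, with a log2 fold change of 0.83 ± 0.21 (adjusted p = 0.0435, edgeR), and the call was lost without WT control 1 (0.72, adjusted p = 0.0551). Its neighbours OAS1 and OAS3 had 0.95 ± 0.35 and 0.18 ± 0.28, and reads of these related genes may be split between them. OASL, EIF2AK2 (the kinase PKR) and ADAR (an RNA editor) had -0.18 ± 0.56, 0.60 ± 0.30 and -0.10 ± 0.15. The OASL row is overlapped in full by a row named OASL2, and the ADAR row by UBE2Q1.

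HERC6, the ligase that attaches ISG15 to proteins in mice (chromosome 32, 11695052 to 11750433), had 202, 168 and 173 CPM in WT compressed libraries and 92.3, 113 and 104 CPM in WT controls, without overlap. Its log2 fold change was 0.81 ± 0.19 (adjusted p = 0.0414, edgeR). ISG15 had 67.0, 54.5 and 26.9 CPM in WT compressed libraries and 18, 44.9 and 27.7 CPM in WT controls, so that WT compressed 3 lay below 2 of the controls. Its value of 0.71 ± 0.36 did not pass (adjusted p = 0.186), and its 95% interval ran from -0.06 to 1.48. UBA7, the enzyme that activates ISG15, had -0.36 ± 0.22, and the ubiquitin ligases TRIM21 and TRIM25 had 0.59 ± 0.26 and 0.23 ± 0.18.

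RTP4, a chaperone that brings receptors to the cell surface (chromosome 34, 19828915 to 19831943), had 20.1, 18 and 16.1 CPM in WT compressed libraries against 1.73, 9.73 and 4.52 CPM in WT controls. The groups did not overlap, and the log2 fold change of 1.75 ± 0.49 passed narrowly (adjusted p = 0.0498, edgeR). Without WT control 1 it was 1.35 (adjusted p = 0.0605) and without WT control 2 it was 2.51, and the call was lost in both. BST2, the tetherin that holds budding viruses, had 0.14 ± 0.27. LGALS3BP was the lone gene with an unadjusted p under 0.05 and a negative value, at -0.57 ± 0.24 (adjusted p = 0.123). 

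The core of ISGF3 showed no call. STAT2 had 50.5, 45.3 and 39.4 CPM in WT compressed libraries and 45.9, 45.8 and 49.5 CPM in WT controls, with a log2 fold change of -0.06 ± 0.15 and a 95% interval from -0.39 to 0.27 (adjusted p = 0.801, edgeR). IRF9 had 19.5, 19.6 and 11.6 CPM in WT compressed libraries against 13.5, 28.7 and 22.7 CPM in WT controls, a value of -0.36 ± 0.31 (adjusted p = 0.444). The groups overlapped in both genes. USP18, which removes ISG15 and blocks the interferon receptor, had 0.95 ± 0.29 (adjusted p = 0.0602), and the MX GTPases had 1.45 ± 0.47 for MX1 (adjusted p = 0.0703) and 2.16 ± 0.99 for MX2 (adjusted p = 0.150).

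**Figure D2:**
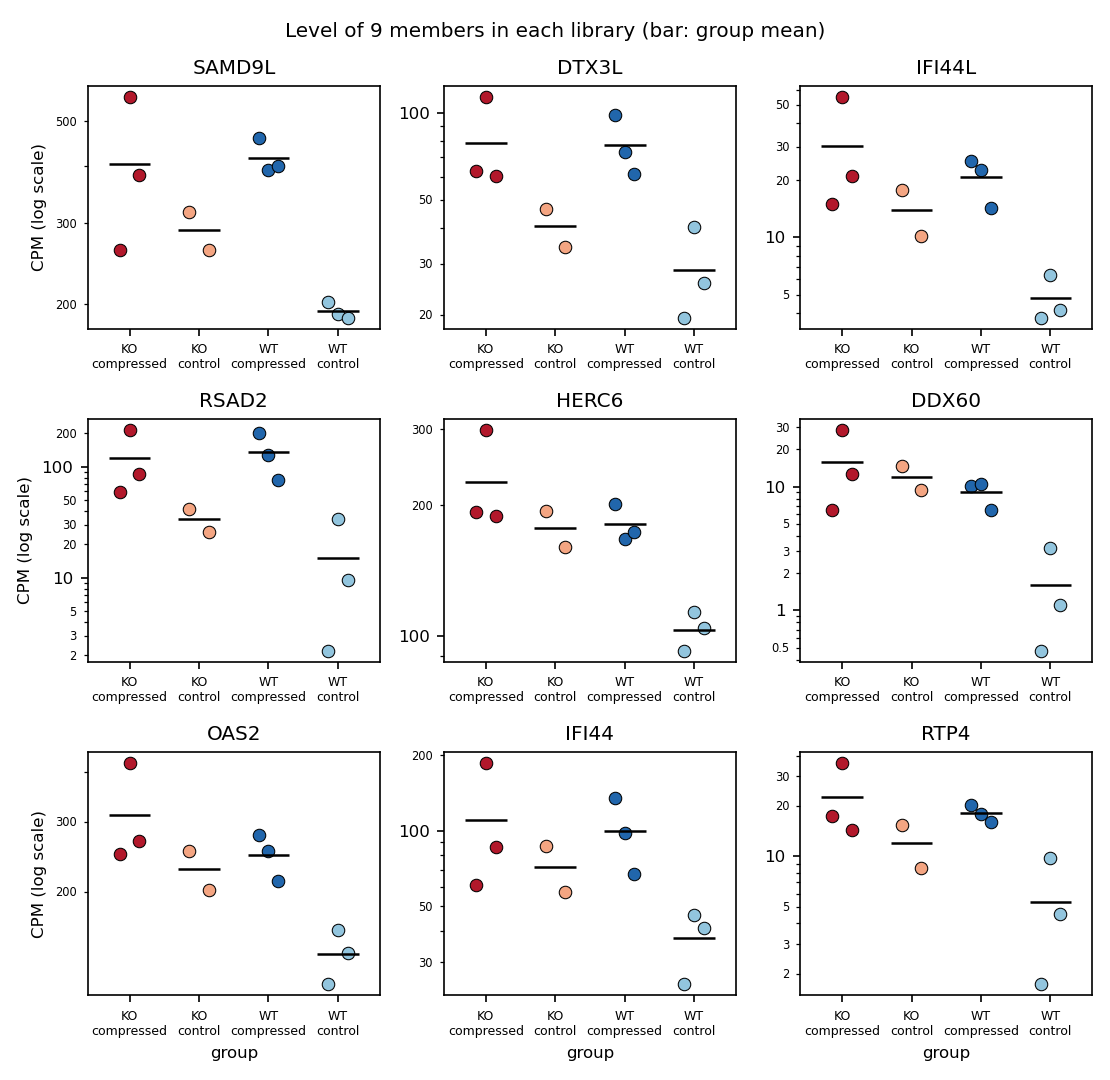
Level of the 9 genes called in WT compression, in CPM on a log axis, with 1 point per library and a bar at the group mean. In each gene the 3 WT compressed points lie above the 3 WT control points, while both KO control points lie above all WT control points in 6 of the 9 genes.

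The 9 calls lay close to the threshold, with adjusted p-values from 0.041 to 0.0498, and over the alternatives tried their adjusted p ranged from 0.000282 to 0.190. At an unadjusted p under 0.05, 20 of the 34 genes were higher, against 15.4% of all genes, and 1 was lower, against 16.4%. No member was called without WT control 2, WT control 3, any of the WT compressed libraries or either KO control library, fits in which 14 to 21 members had an unadjusted p under 0.05, and at most 1 of all genes was called. Without WT control 1, 5 members were called while the count over all genes grew to 1379, against 848 with every library. Without KO compressed 2, 16 members and 3066 of all genes were called.

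In KO cells, 33 of the 34 genes had a positive log2 fold change after compression, against 49.4% of all genes, but none was called, as none of the 13560 genes was (0% of all genes). The median was 0.49 over the 34 genes and 0.00 over all genes tested, and 0.22 without KO compressed 2. At an unadjusted p under 0.05, 7 of the 34 were higher (DTX3L, IFI44L, IFIT2, IFIT3, MX1, PARP14 and RSAD2), against 3.41% of all genes, none was lower (2.70%), and DESeq2 called none. In 9 genes the compressed libraries lay wholly above the controls, against 13.5% of all genes.

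DTX3L had 62.7, 113 and 60.5 CPM in KO compressed libraries 1, 2 and 3 and 46.5 and 34.3 CPM in KO controls 1 and 2. The groups did not overlap, and its log2 fold change was 0.96 ± 0.34 (adjusted p = 0.773, edgeR). MX1, a GTPase that traps viral nucleoproteins, had 39.3, 109 and 36.7 CPM in KO compressed libraries against 28.8 and 16.2 CPM in KO controls, a value of 1.45 ± 0.54. RSAD2 had 59.3, 214 and 86.3 CPM in KO compressed libraries against 41.8 and 25.9 CPM in KO controls, a value of 1.82 ± 0.79. In all 3 genes the groups did not overlap, and KO compressed 2 was the highest library.

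IFI44L had 15.0, 55.0 and 21.2 CPM in KO compressed libraries and 17.7 and 10.2 CPM in KO controls, and its groups overlapped (log2 fold change 1.12 ± 0.48). IFI44 had 60.9, 185 and 86.2 CPM in KO compressed libraries against 87.1 and 56.9 CPM in KO controls (0.62 ± 0.42). DDX60 had 6.42, 28.5 and 12.6 CPM in KO compressed libraries against 14.6 and 9.45 CPM in KO controls. KO compressed 1 and 3 lay between the controls for IFI44, and KO compressed 1 lay below both for DDX60, whose value was 0.39 ± 0.60. RTP4 had 17.5, 35.9 and 14.4 CPM in KO compressed libraries against 15.3 and 8.58 CPM in KO controls, a value of 0.91 ± 0.53. 

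SAMD9L stood at 263, 564 and 382 CPM in KO compressed libraries and at 317 and 263 CPM in KO controls, a log2 fold change of 0.48 ± 0.24. OAS2 stood at 250, 421 and 269 CPM in KO compressed libraries against 254 and 202 CPM in KO controls (0.46 ± 0.23), and HERC6 at 193, 298 and 189 CPM in KO compressed libraries against 194 and 161 CPM in KO controls (0.35 ± 0.21). The groups overlapped in each of these genes. ISG15 had 73.9, 103 and 58.7 CPM in KO compressed libraries and 59.1 and 41.2 CPM in KO controls (0.64 ± 0.40, adjusted p = 0.773, edgeR). STAT2 had 54.5, 63.4 and 62.6 CPM in KO compressed libraries against 56.8 and 57.3 CPM in KO controls (0.08 ± 0.17), and IRF9 24.9, 16.5 and 32.5 CPM in KO compressed libraries against 26.5 and 21.8 CPM in KO controls (0.03 ± 0.34). The groups overlapped in all 3. LGALS3BP had the 1 negative value, -0.22 ± 0.27.

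**Figure D3:**
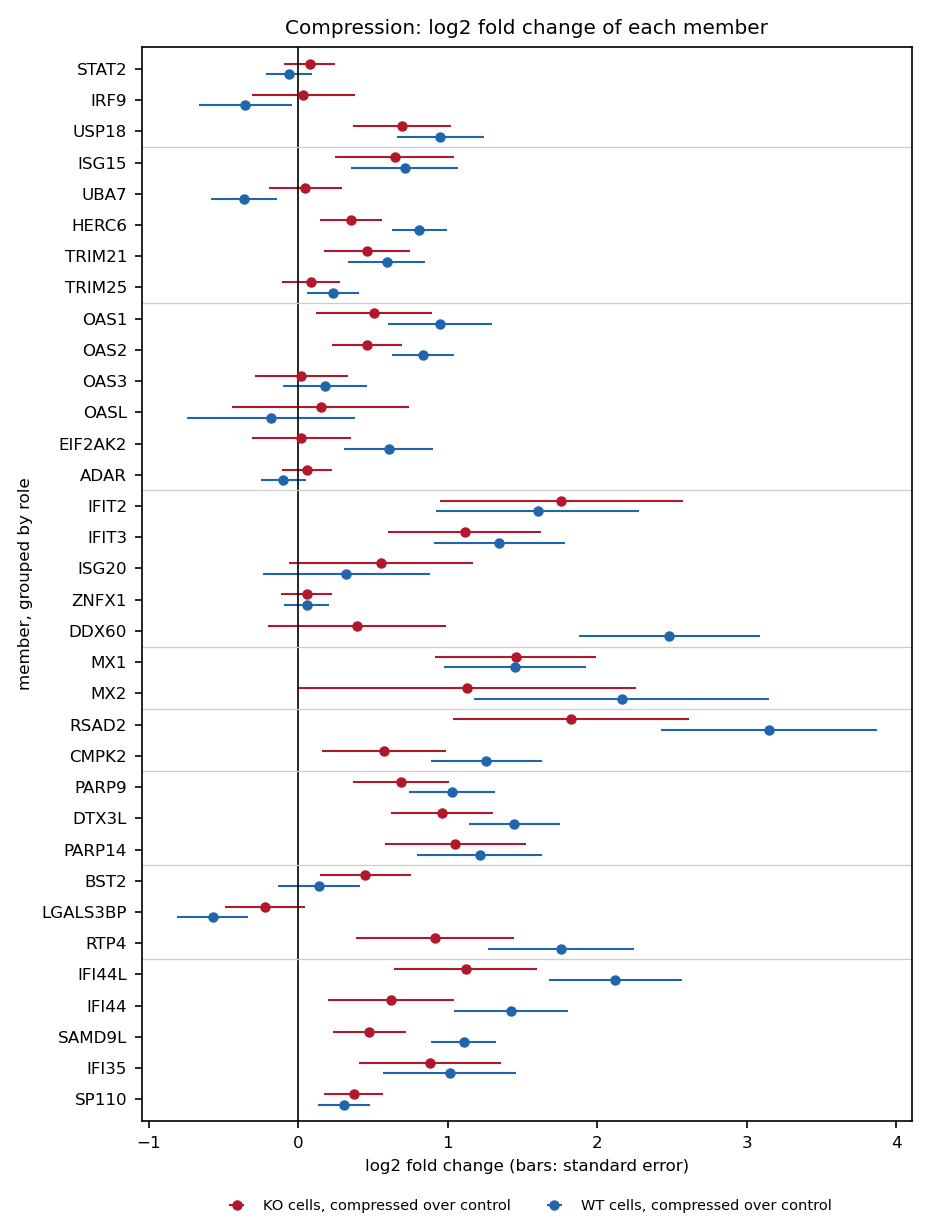
Log2 fold change of compressed over control cells for the 34 genes, with KO cells in red above WT cells in blue and bars for the standard error. RSAD2 has the highest value in both genotypes, 1.82 in KO and 3.15 in WT cells, and DDX60 shows the widest gap between them, 0.39 in KO and 2.48 in WT cells.

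The test of the difference between genotypes in the compression effect called none of the 34 genes, as none of all genes (0%). The interaction, KO effect minus WT effect, had a median of -0.16 over the 34 genes and 0.01 over all genes tested, and 12 of the 34 were positive, against 51.3% of all genes. DDX60 had -2.09 ± 0.83, the 1 member with an unadjusted p under 0.05 (unadjusted p = 0.0254, adjusted p = 0.939, edgeR), where 2.26% of all genes were negative and 2.53% positive at that level. SAMD9L had -0.63 ± 0.32 and HERC6 -0.46 ± 0.28, with 95% intervals from -1.32 to 0.06 and from -1.05 to 0.14. ISG15 had -0.07 ± 0.53, STAT2 0.14 ± 0.23 and IRF9 0.39 ± 0.47. Values near 0 with such errors do not show that the genotypes responded alike: the interval of ISG15 ran from -1.21 to 1.07 and that of RSAD2 from -3.47 to 0.82. Without KO compressed 2 the median was -0.61, and with KO compressed 2, WT compressed 3 and WT control 1 all left out, DDX60, IFI44, IFI44L and SAMD9L were called with a negative interaction (adjusted p = 0.0418 to 0.0439 by edgeR, and up to 1 over the other alternatives), among 362 of all genes called in that fit. These libraries were picked after seeing the data, as the one in each group of 3 with the largest chi-square against its group over all genes.

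Between the genotypes without compression, 27 of the 34 genes had a positive log2 fold change of KO over WT, against 48.3% of all genes. None was called (0.133% of all genes were called higher and 0.206% lower), while 9 were higher at an unadjusted p under 0.05, against 4.59% of all genes (CMPK2, DDX60, HERC6, IFI35, IFI44, IFI44L, OAS2, RTP4 and SAMD9L), and none lower (3.20%). The median was 0.53 over the 34 genes and -0.01 over all genes. In 14 genes both KO control libraries lay above all WT control libraries, against 16.9% of all genes, and in IFIT2 both lay below (15.0%). This comparison and that of WT compression share the WT control libraries, so their values are not independent.

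DDX60 had 14.6 and 9.45 CPM in KO controls against 0.473, 3.22 and 1.10 CPM in WT controls. Both KO values were above all WT values, and the log2 fold change was 2.89 ± 0.64 (adjusted p = 0.101, edgeR; 0.00117 by DESeq2, which called it). HERC6 had 194 and 161 CPM in KO controls against 92.3, 113 and 104 CPM in WT controls, a value of 0.78 ± 0.20 (adjusted p = 0.226). IFI44L had 17.7 and 10.2 CPM in KO controls against 3.78, 6.37 and 4.15 CPM in WT controls, a value of 1.54 ± 0.48 (adjusted p = 0.358). None of these groups overlapped. Without KO compressed 2, whose spread enters the shared estimate, DDX60 (adjusted p = 0.0232) and HERC6 (0.0297) were called; over all alternatives their adjusted p ranged from 0.00117 to 0.905 and from 0.0119 to 1.

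The level of ISG15 was 59.1 and 41.2 CPM in KO controls and 18, 44.9 and 27.7 CPM in WT controls, with overlap (0.73 ± 0.39, adjusted p = 0.714, edgeR). STAT2 had 56.8 and 57.3 CPM in KO controls, above the 45.9, 45.8 and 49.5 CPM of WT controls (0.28 ± 0.17, adjusted p = 0.760). IRF9 had 26.5 and 21.8 CPM in KO controls and 13.5, 28.7 and 22.7 CPM in WT controls (0.16 ± 0.34). IFIT2 had 0.936 and 0.706 CPM in KO controls and 0.945, 2.48 and 1.28 CPM in WT controls, a value of -0.93 ± 0.81.

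Between the genotypes after compression, the median log2 fold change of KO over WT was 0.25 over the 34 genes and -0.01 over all genes; it was -0.08 without KO compressed 2. A positive value was found in 26 of the 34, against 49% of all genes. None of the 34 was called (0.509% of all genes were called higher and 0.280% lower). At an unadjusted p under 0.05, BST2, IFI35, STAT2 and UBA7 were higher, against 6.79% of all genes, and none was lower (4.49%). IFI35, STAT2 and UBA7 were the genes with all KO above all WT libraries (7.92% of all genes), and IFIT3 the gene with all below (7.82%).

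BST2 had 21.7, 38.1 and 27.9 CPM in KO compressed libraries against 22.9, 17.4 and 11.3 CPM in WT compressed libraries, a log2 fold change of 0.76 ± 0.27 (adjusted p = 0.276, edgeR). IFI35 had 6.72, 13.4 and 6.87 CPM in KO compressed libraries against 5.38, 2.54 and 3.94 CPM in WT compressed libraries, a value of 1.18 ± 0.43 (adjusted p = 0.281). STAT2 had 54.5, 63.4 and 62.6 CPM in KO compressed libraries against 50.5, 45.3 and 39.4 CPM in WT compressed libraries, a value of 0.42 ± 0.15 (adjusted p = 0.292). KO compressed 1 overlapped the WT libraries in BST2, and the groups stood apart in the other pair. IFIT3 had 2.17, 2.89 and 1.92 CPM in KO compressed against 4.84, 5.00 and 3.23 CPM in WT compressed libraries (-0.91 ± 0.43). ISG15 and IRF9 had 0.66 ± 0.35 and 0.54 ± 0.31, and RSAD2 -0.18 ± 0.66, with a 95% interval from -1.60 to 1.23.

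**Figure D4:**
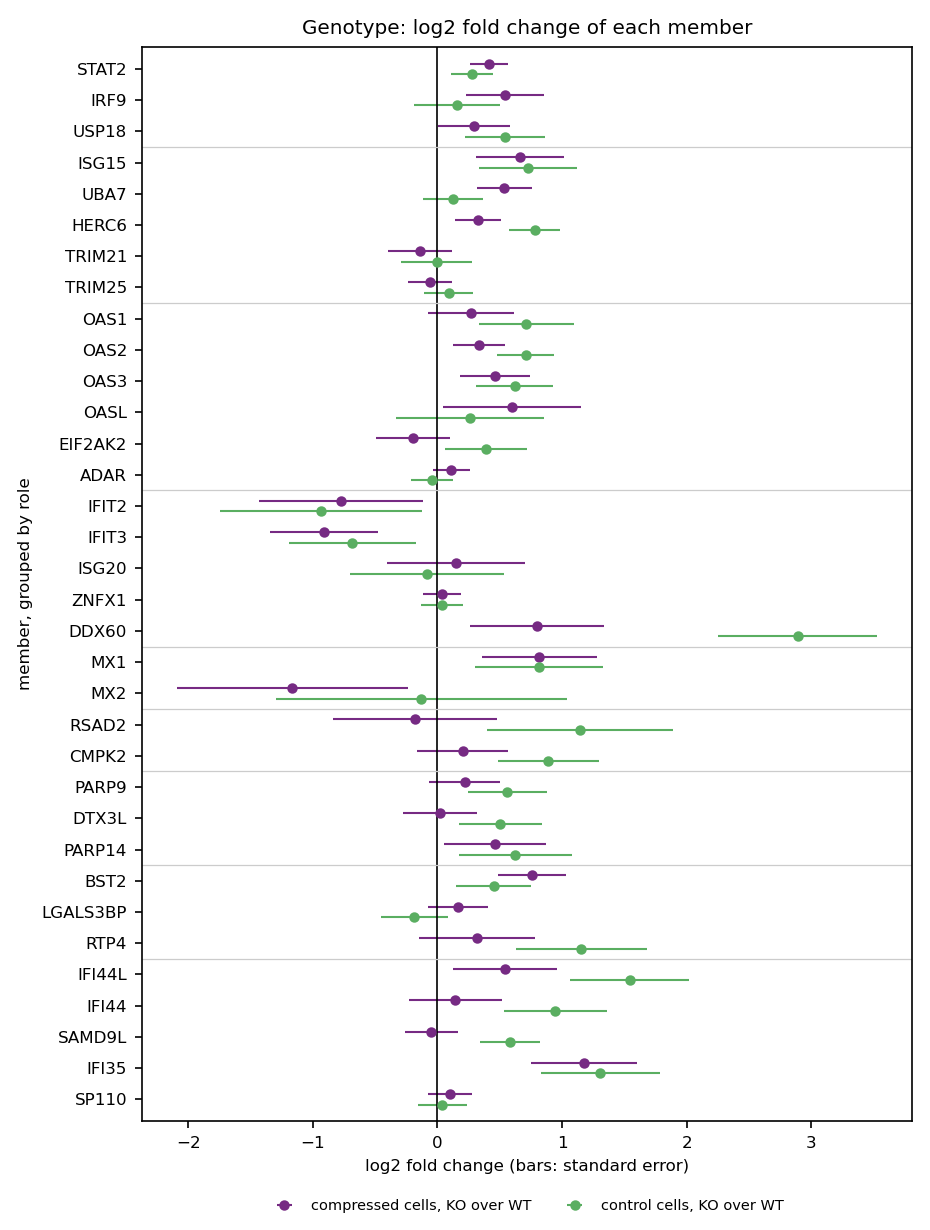
Log2 fold change of KO over WT for the 34 genes, with compressed cells in purple above control cells in green and bars for the standard error. DDX60 has the highest value in control cells (2.89), while IFIT2, IFIT3, MX2 and TRIM21 are negative under both conditions.

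Of 66 other listed genes of the interferon pathway and of antigen presentation, 62 were in the table. Of the ligands, IFNB1, IFNG, IFNL1 and IFNL3 had 0 counts in every library, and IFNE and IFNK averaged 3.25 and 1.49 CPM in KO compressed, 2.57 and 1.39 CPM in KO control, 2.91 and 1.49 CPM in WT compressed and 2.87 and 0.981 CPM in WT control cells, with 0 of 2 tested ligands called. Of 8 receptors and kinases, 0 were called in any comparison, IFNAR1 and TYK2 having the smallest p in WT compression (1.11 ± 0.43 and -0.46 ± 0.19). Of 10 STAT and IRF factors outside the effector list, 0 were called in any comparison. Of 12 tested antigen presentation genes, 0 were called, with DLA-88 at -0.67 ± 0.19 and B2M at 0.57 ± 0.16 in WT compression (adjusted p = 0.0507 and 0.0542, edgeR). Over all genes, 3.85% were called higher and 2.40% lower in WT compression. In the other comparisons at most 0.509% were called higher and 0.280% lower. At such shares lists this short may hold no call, so this does not show that these genes were unchanged. 

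Of 12 tested nucleic acid sensors and adaptors, 3 were called higher in WT compression and none lower, against 3.85% and 2.40% of all genes. All 3 sense double-stranded RNA. IFIH1, which encodes MDA5, had 86.0, 75.6 and 81.6 CPM in WT compressed libraries against 36.9, 39.8 and 42.1 CPM in WT controls (1.03 ± 0.21, adjusted p = 0.041, edgeR). DDX58, which encodes RIG-I, had 34.7, 26.8 and 25.1 CPM in WT compressed libraries against 13.5, 12.3 and 10.4 CPM in WT controls (1.26 ± 0.27), and TLR3 15.7, 14 and 22.6 CPM in WT compressed libraries against 8.27, 5.84 and 6.78 CPM in WT controls (1.32 ± 0.36). All 3 are themselves known as interferon-stimulated, and none overlapped between groups, where 21.2% of all genes lay wholly higher. DHX58, also a sensor of double-stranded RNA, was not called and its groups overlapped. It had 14.6, 11.6 and 4.24 CPM in WT compressed libraries against 4.81, 13.8 and 7.02 CPM in WT controls. The adaptor TICAM1 and the kinase IKBKE lay wholly lower in WT compressed libraries, against 20.8% of all genes, and were not called. The DNA sensor CGAS and its partner TMEM173 (STING) were listed at 0 to 0.122 CPM. IFI16, another DNA sensor, had every KO library above every WT library under both conditions and was called after compression alone, with 2.91, 3.33 and 2.23 CPM in KO compressed libraries against 0.0769, 0.508 and 0.303 CPM in WT compressed libraries (3.23 ± 0.62, adjusted p = 0.0254, edgeR). Without compression it had 2.64 and 2.82 CPM in KO controls against 0.551, 0.268 and 0.183 CPM in WT controls (3.04 ± 0.62, adjusted p = 0.0669), and the WT libraries held few counts of it. Among 8 tested feedback inhibitors, IRF2BP1 was called lower in WT compression and no other was called. It had 14.1, 18 and 12.9 CPM in compressed against 30.8, 43.0 and 35.6 CPM in control libraries (-1.28 ± 0.35, adjusted p = 0.0489, edgeR). Without WT control 2, WT control 3, any WT compressed library or either KO control library, at most 1 of all genes was called in WT compression. At most 1 of the calls of IFIH1, DDX58, TLR3 and IRF2BP1 can therefore hold in each such fit. None of them held with the replicate block or with limma on log2(FPKM + 1), where 0 genes were called.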

How the data were processed

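Polyadenylated RNA was primed with random hexamers, per the labels' protocols. CASAVA, FastQC, HISAT2 2.0.5 and build CanFam3.1 are named in the submitters' processing notes; the counter, annotation release, filters and strand setting were not given in the sources used here. Raw counts per gene were deposited by the authors. The authors also deposited FPKM, which are these counts divided by gene length and by 0.964 to 1.049 times the library total. Depth ran from 10420214 to 17999623 counts, so genes under about 1 CPM rest on few reads.

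Counts were fitted in edgeR 4.0.16 (R 4.3.3) after filterByExpr (13560 genes) and TMM scaling, with 4 groups over 11 libraries (7 residual degrees of freedom), two-sided quasi-likelihood tests and Benjamini-Hochberg adjustment at 0.05. SE is the log2 fold change over the root of F, and CPM are TMM-scaled. The fit was also run on data simulated from its own estimate of the spread, which cannot show how outlying libraries affect the calls. Replicates agreed no closer than a chi-square of 5.86 per gene, so none was a repeat deposit.

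Groups came from the sample titles. Values by library are given for members called in any comparison, for the 3 with the smallest p where none was called, and for ISG15, STAT2 and IRF9; values of IFIT1, IFIT2 and IFIT3 were added after their values were seen. STAT2 has a further row on chromosome X with 1 count, which was not used. The members and lists were chosen with earlier results of these data known. Alternatives were RLE and library-size scaling, no filter, 1 CPM in 3 libraries, DESeq2 1.42.0, limma 3.58.1 on log2(FPKM + 1) and log2(FPKM + 0.1), a robust fit, 2 groups alone, the replicate number as a term and each library left out; leaving out 3 libraries at once was added after seeing the data.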

Additional observations from a re-analysis of the deposited data

How the results depend on the processing

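In WT compression 9 interferon-stimulated genes were called. The count was 15 with no filter, 15 with DESeq2, 14 with the 2 groups alone, 0 with limma on log2(FPKM + 1), log2(FPKM + 0.1) or log2(FPKM + 1) without a filter (18, 18 and 19 members at an unadjusted p under 0.05), and 6 to 10 with the other scalings, the 1 CPM filter and the robust fit. With the replicate block it was 0, with 18 members at an unadjusted p under 0.05; deviations of same-numbered libraries correlated from -0.349 to 0.201, so the numbers were not taken as pairs. Leaving out 1 library gave 0 to 16. With KO compressed 2, WT compressed 3 and WT control 1 left out, the library of each group of 3 farthest from its group over all genes, which lowers the spread by construction, 18 were called, 17 higher and LGALS3BP lower. Over all genes the count of 848 ran from 0 with the block to 2558 with DESeq2 and 3497 without the 3 libraries.

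Between control genotypes, the count of 0 became 1 (DDX60) with no filter and with DESeq2, 0 to 2 with 1 library left out and 5 without the 3 libraries; over all genes it was 46, against 15 with the block, 127 with DESeq2 and 802 without the 3 libraries. Between compressed genotypes the median of 0.25 was -0.19 without the 3 libraries, and 107 genes over all became 53 with the block, 371 with DESeq2 and 723. For the interaction, 4 members and 362 genes over all were called without the 3 libraries, and the median lay between -0.61 and -0.020 with 1 library left out. In KO compression no alternative called a member. No value changed sign with a call, and the cause of these shifts was not tested. Some members rest on few counts, among them EPSTI1 and IFIT1 with 3 and 8 counts over the 11 libraries and MX2, ISG20 and OASL with 116, 161 and 167. The EPSTI1 and OASL rows also lie within rows of other genes, and OASL2 held 4348 counts on the strand of OASL. What part depth or overlap has in these low counts was not tested.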
